A study of Arabidopsis thaliana with 8 samples.

Results

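The nitrate assimilation genes NIA1, NIA2, NIR1 and GLN2 were followed together with PPDK, a gene of carbon and nitrogen remobilisation, in young leaves of Arabidopsis thaliana, accession Col-0. The members are 5 of 22746 non-control probe sets on an ATH1 array, an Affymetrix design on which each probe set reads a transcript or a few related ones. Of the 5, 4 were chosen by probe set identifier, namely 259681_at (NIA1), 261979_at (NIA2), 265475_at (NIR1) and 249710_at (GLN2), and the fifth, 245528_at, because the platform's gene table names it PPDK. The rule uses names and identifiers and no measured value, but the members were chosen with earlier results of these data known. The gene table used here pairs the first 4 identifiers with no gene, so their gene names are those under which they were chosen and were not checked against it. In the RefSeq gene table these names stand for the loci AT1G77760, AT1G37130, AT2G15620, AT5G35630 (listed there as GS2) and AT4G15530.

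Total RNA from developing leaves at insertions 19 to 21 was hybridised to 8 arrays at 0 h. Plants of both groups were grown on compost at 20 °C, 50% humidity and 10 h of light. The elevated group is 4 arrays whose treatment text names elevated growth, with 750 ppm CO2 and a 24 h adjustment in a cuvette stated for elevated replicate 1, and elevated replicate 4 is called elevated with no mention of the gas. The not-elevated group is the other 4 arrays. Not-elevated replicate 1 has a title code of its own and a letter where the other 3 of its group have the word control, so results that turn on it are given with and without it. All 8 samples carry the same growth text, in which the atmosphere is normal. Nothing says that replicates came from separate plants, so p-values rest on the variation among these arrays alone, which may be of technical origin.

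Nitrate taken up by a plant is reduced to nitrite in the cytosol by nitrate reductase, which NIA1 and NIA2 encode. Nitrite is reduced to ammonium in the plastid by nitrite reductase, encoded by NIR1, with electrons from ferredoxin. Plastid glutamine synthetase, encoded by GLN2, joins ammonium to glutamate and also recaptures the ammonium that photorespiration releases, a flux that high CO2 slows. PPDK, pyruvate orthophosphate dikinase, interconverts pyruvate and phosphoenolpyruvate and is known from ageing Arabidopsis leaves, where it takes part in moving nitrogen out of the leaf as amino acids. The comparison of the groups asks whether transcripts of nitrate reduction, ammonium assimilation and nitrogen remobilisation differed in young leaves of plants grown in elevated CO2.

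The deposited values are MAS5 signals in array units, scaled so that the trimmed mean of each array was 100, and between 30.3% and 33.9% of the probe sets per array read under 20 units. The arrays were alike, with correlations across probe sets of 0.974 to 0.987 on the log2(signal + 10) scale. The leaf label was checked on markers of photosynthetic cells, of which 6 of 24 are named on the array. RCA, the Rubisco activase gene, read 2333 to 3434 units in the not-elevated and 3157 to 3700 units in the elevated arrays, and the summed signal of the 6 was 11208 to 13897 and 13156 to 14918 units. The 3 root markers named on the array together read 46.8 to 72.4 and 33.5 to 65.0 units in the 2 groups.

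None of the 5 members passed the threshold between the groups, an adjusted p of 0.05 in limma over the 15296 probe sets that averaged 20 units or more. Over these, 48 probe sets passed, or 0.314%, a share at which 0 of 5 is no result about the members. At an unadjusted p of 0.05, 1 of the 5 members passed, PPDK, against 11.1% of all probe sets tested. The groups overlapped in all 5 members, whereas they did not overlap in 6.11% of the probe sets tested. NIA2, NIR1 and GLN2 had higher means in the elevated group and NIA1 and PPDK lower means, each with the interval given for it. In leaf tissue, fewer cells of a type and less RNA per cell cannot be told apart. The plot of signals by array shows the members side by side, each on its own axis because levels of different probe sets cannot be compared.

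**Figure D1:**
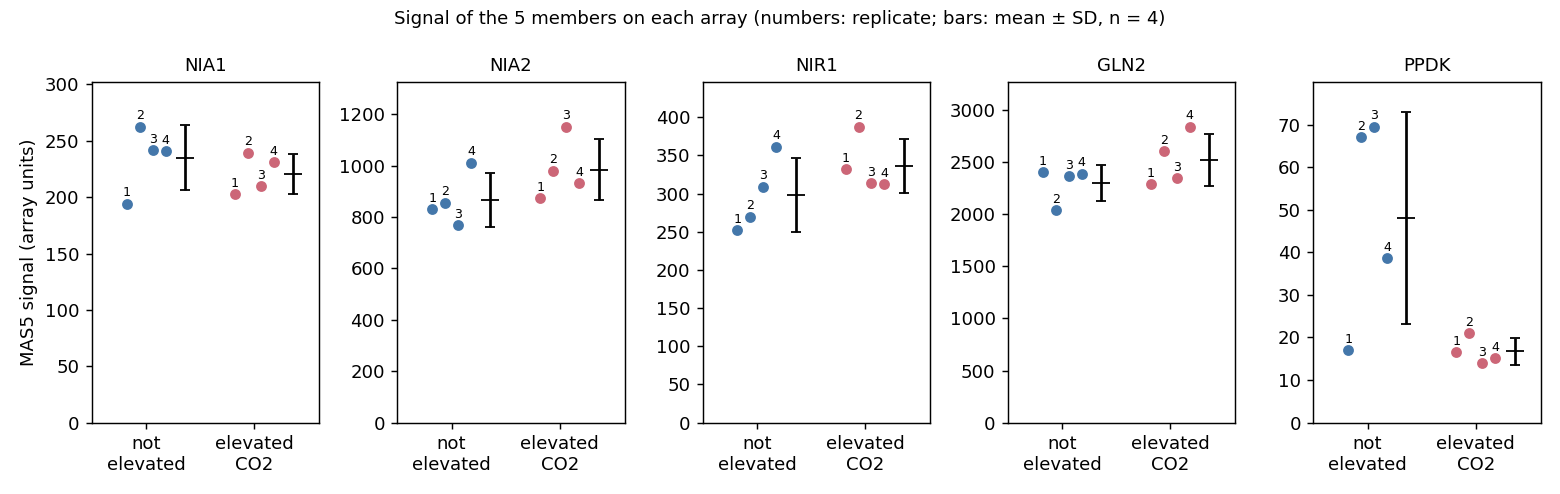
MAS5 signal in array units of NIA1, NIA2, NIR1, GLN2 and PPDK on each of the 8 arrays, in not-elevated (blue) and elevated CO2 (red) groups. Small numbers are replicate numbers and bars are the mean ± SD (n = 4). The groups overlap in every panel, and in PPDK not-elevated replicate 1, at 17.0 units, lies among the elevated arrays.

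NIA1, the first of the nitrate reductase genes, read 194.2, 262.5, 241.5 and 241.0 units in not-elevated replicates 1 to 4. It read 202.6, 239.6, 209.6 and 231.0 units in elevated replicates 1 to 4. Not-elevated replicate 1 was the lowest of the 8 arrays and not-elevated replicate 2 the highest, so the elevated arrays lay inside the range of the not-elevated arrays. The means were 235 ± 28.9 and 221 ± 17.5 units (SD, n = 4 each). The difference of elevated minus not elevated was -0.081 ± 0.10 (SE) on the log2(signal + 10) scale, with a limma adjusted p of 0.8289. Its 95% interval of -0.30 to 0.14 covers ratios from 0.814 to 1.10.

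NIA2, the second nitrate reductase gene, gives most of the leaf's nitrate reductase activity in this species. It read 831.1, 856.0, 768.3 and 1012.3 units in not-elevated replicates 1 to 4. It read 873.9, 980.7, 1151.6 and 932.3 units in elevated replicates 1 to 4. Elevated replicate 3 was the highest array and not-elevated replicate 3 the lowest, while not-elevated replicate 4 lay above 3 of the 4 elevated arrays. The means were 867 ± 104 and 985 ± 120 units (SD, n = 4 each), 13.6% higher in the elevated group. On the log2(signal + 10) scale the difference was 0.18 ± 0.11 (SE), with a 95% interval of -0.044 to 0.41 and a limma adjusted p of 0.565. A ratio above 1.33 lies outside that interval.

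NIR1, the nitrite reductase gene, read 252.1, 269.9, 309.0 and 361.4 units in not-elevated replicates 1 to 4. It read 331.6, 387.5, 313.2 and 312.5 units in elevated replicates 1 to 4. The 3 lowest arrays were not-elevated, and not-elevated replicate 4 was the second highest of all. The means were 298 ± 48.4 and 336 ± 35.3 units (SD, n = 4 each), 12.8% higher in the elevated group. The difference was 0.18 ± 0.11 (SE) on the log2(signal + 10) scale, with a 95% interval of -0.067 to 0.42 and a limma adjusted p of 0.610.

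GLN2, the plastid glutamine synthetase gene, read 2403.7, 2043.1, 2366.7 and 2390.3 units in not-elevated replicates 1 to 4. It read 2291.7, 2604.2, 2344.0 and 2839.8 units in elevated replicates 1 to 4. The highest 2 arrays were elevated replicates 4 and 2, but elevated replicates 1 and 3 lay below 3 of the not-elevated arrays. The means were 2301 ± 173 and 2520 ± 253 units (SD, n = 4 each), 9.52% higher in the elevated group. The difference was 0.13 ± 0.094 (SE) on the log2(signal + 10) scale, with a 95% interval of -0.073 to 0.33 and a limma adjusted p of 0.659. With quantile normalization it was 0.033, while scaling to a common median gave 0.13. Among the 4 assimilation genes GLN2 had the smallest spread within groups, an SD of 0.128 on the log2(signal + 10) scale, against 0.148 for NIA1, 0.167 for NIA2 and 0.186 for NIR1. The median over all probe sets tested was 0.162.

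The 6 leaf markers named above had higher means in the elevated group as well, by a median of 0.15 on the log2(signal + 10) scale, which is close to the differences of NIA2, NIR1 and GLN2. None of the 6 passed the threshold or an unadjusted p of 0.05 in limma, which 0.314% and 11.1% of all probe sets tested passed. LHCB4.3, a light-harvesting protein gene, came nearest, with 486 ± 22.4 and 545 ± 19.9 units (SD, n = 4 each), groups that did not overlap, and an adjusted p of 0.457. With quantile normalization 5 of the 6 were higher, with a median of 0.044. In that setting the difference of GLN2 was 0.033, but those of NIA2 and NIR1 were 0.15 and 0.17. The closeness to the leaf markers thus held for GLN2 alone under that scaling. Their part in the differences of the assimilation genes was not tested.

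PPDK read 17.0, 67.0, 69.5 and 38.7 units in not-elevated replicates 1 to 4. It read 16.6, 21.0, 14.0 and 15.2 units in elevated replicates 1 to 4. Of the 8 arrays, 3 not-elevated arrays read 38.7 units or more and the other 5 read 21.0 or less. Not-elevated replicate 4, at 38.7 units, lay between the low arrays and not-elevated replicates 2 and 3. Not-elevated replicate 1 lay within the range of the elevated arrays. The means were 48.0 ± 25.0 and 16.7 ± 3.07 units (SD, n = 4 each), and no fold is given because the elevated level was not shown to lie above background. On the log2(signal + 10) scale the difference was -1.002 ± 0.27 (SE), with a 95% interval of -1.59 to -0.42 and a limma adjusted p of 0.170. Its unadjusted limma p was 0.00254, which ranked 228 among the 15296 probe sets tested. Because PPDK was chosen with earlier results of these data known, that p and rank are a description.

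The spread of PPDK set it apart from the assimilation genes. Its SD within groups was 0.528 on the log2(signal + 10) scale, as large as or larger than that of 99.0% of the probe sets tested. Nearly all of it came from the not-elevated arrays, where the SD was 52.0% of the mean, against 18.4% in the elevated arrays. The mean of the elevated arrays lay under the 20 units set as the minimum for testing, so PPDK was tested because of its level in the not-elevated group. At such low signals the pseudocount of 10 makes the log2 difference understate the change, and detection calls were not used here, so these signals do not say whether PPDK was expressed at all in the elevated arrays.

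The value for PPDK depended on not-elevated replicate 1. Without that array the not-elevated arrays averaged 58.4 ± 17.1 units (SD, n = 3) against 16.7 units, and the groups did not overlap, as was the case for 11.5% of all probe sets tested in that setting. The log2 difference was then -1.33 ± 0.19 (SE), and its limma adjusted p was 0.00666, under the threshold that 131 probe sets of 15296, or 0.856%, passed in either direction. PPDK entered this test through its not-elevated level, and the array was left out with the values known, so the p describes how much that array weighs and is not independent support for a change. With both replicate 1 arrays left out the difference was -1.33 (limma adjusted p = 0.00896). Over all 17 alternatives that gave PPDK a value, its difference ran from -1.33 to -0.52 and its limma adjusted p from 0.00666 to 0.388. The -0.52 came with a pseudocount of 50, on which scale low signals give smaller log2 differences (limma adjusted p = 0.170). With 1 array left out the difference ran from -1.33 to -0.81. Between arrays of the same replicate number, the log2 differences of PPDK were -0.020, -1.31, -1.72 and -0.95 for replicates 1 to 4. The numbers are not known to mark shared plants and were not taken as pairs, so these values are a description.

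**Figure D2:**
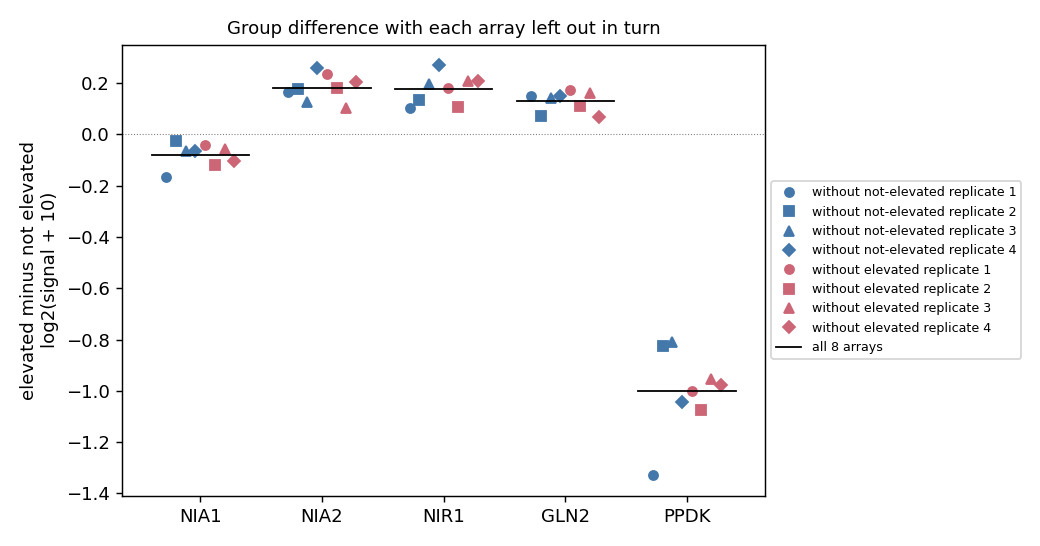
Difference of elevated minus not elevated on the log2(signal + 10) scale for the 5 members, with each of the 8 arrays left out in turn (blue, a not-elevated array left out; red, an elevated array left out). Horizontal bars are the values with all 8 arrays. No member changes sign, and PPDK moves from -1.002 to -1.33 without not-elevated replicate 1.

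Not-elevated replicate 1 was also the lowest of the 8 arrays in NIA1 and NIR1. Without it the NIA1 difference was -0.17 ± 0.092 (SE) in place of -0.081, and that of NIR1 was 0.10 ± 0.11 in place of 0.18, with limma adjusted p-values of 0.541 and 0.795. NIA2 and GLN2 were little moved, at 0.16 and 0.15. With any array left out, the differences of the 4 assimilation genes kept their signs and stayed on the same side of the threshold, with NIA1 at -0.17 to -0.027, NIA2 at 0.10 to 0.26, NIR1 at 0.10 to 0.27 and GLN2 at 0.069 to 0.17.

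As a check that does not rest on a model of the variance, each member was compared with an exact permutation test over the 8 arrays (two-sided), which with 4 against 4 cannot give a p below 0.0286. The exact p was 0.429 for NIA1, 0.200 for NIA2, 0.200 for NIR1, 0.286 for GLN2 and 0.0571 for PPDK. None of the 5 was under 0.05.

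Neither the nitrate reductase paralogs nor the steps that follow each other were shown to differ in how much they changed. The difference of NIA1 minus that of NIA2 was -0.26 on the log2(signal + 10) scale, with an exact permutation p of 0.229 and 0.686 after Benjamini-Hochberg adjustment over the 3 pairs compared. Within groups that quantity had an SD of 0.22 in the not-elevated and 0.20 in the elevated arrays (n = 4 each). These SDs describe single arrays, whereas the gap of -0.26 is between means of 4. NIA2 minus NIR1 differed by 0.0058 and NIR1 minus GLN2 by 0.047, each with an exact adjusted p of 0.971. These values compare changes, not levels, of the probe sets.

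The 4 assimilation genes were also set against each other over the 8 arrays, to see whether arrays high in a gene were high in another. NIA2 and NIR1, whose enzymes act in sequence, had a Pearson's r of 0.47 (exact permutation p = 0.234) and a Spearman's rho of 0.71 (exact permutation p = 0.0576). After adjustment over the 10 pairs of the 5 members these were 0.585 and 0.288. Elevated replicate 3 and not-elevated replicate 3 were the arrays farthest from the median of NIA2, and without them r was 0.88. The paralogs NIA1 and NIA2 had r = -0.092 and rho = -0.12 (exact permutation p = 0.832 and 0.793; adjusted 0.832 and 0.881), and r = -0.71 without the 2 arrays farthest from the median of NIA1.

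The remaining pairs gave NIR1 and GLN2 r = 0.40 and rho = 0.19, NIA1 and NIR1 r = 0.24 and rho = 0.024, NIA2 and GLN2 r = 0.21 and rho = 0.14, and NIA1 and GLN2 r = -0.15 and rho = -0.24. Their exact permutation p-values were 0.323 and 0.665, 0.554 and 0.977, 0.629 and 0.752, and 0.735 and 0.582, in the same order. Adjusted over the 10 pairs they were 0.645 and 0.881, 0.832 and 0.977, 0.832 and 0.881, and 0.832 and 0.881. Without the 2 arrays farthest from the median of the first gene, r was 0.41, -0.23, 0.48 and -0.43. Of these 6 pairs, 0 passed an adjusted or an unadjusted exact p of 0.05 for r. Within groups, as deviations from the group means, r was 0.29 for NIA2 and NIR1, 0.46 for NIA1 and NIR1 and 0.084 for NIA1 and NIA2. For the 4 pairs with PPDK, r was 0.755 with NIA1, -0.51 with NIA2, -0.14 with NIR1 and -0.55 with GLN2. These span 3 arrays with high and 5 with low PPDK signals, too few to test the relation within either set. NIA1 and PPDK (rho = 0.76) was the single pair of the 10 with an unadjusted exact permutation p under 0.05 (0.0305 for r and 0.0368 for rho). After adjustment over the 10 pairs it had 0.305 and 0.288. As deviations from the group means, r of NIA1 and PPDK was 0.83. The pairs with PPDK were not followed through the alternative settings.

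**Figure D3:**
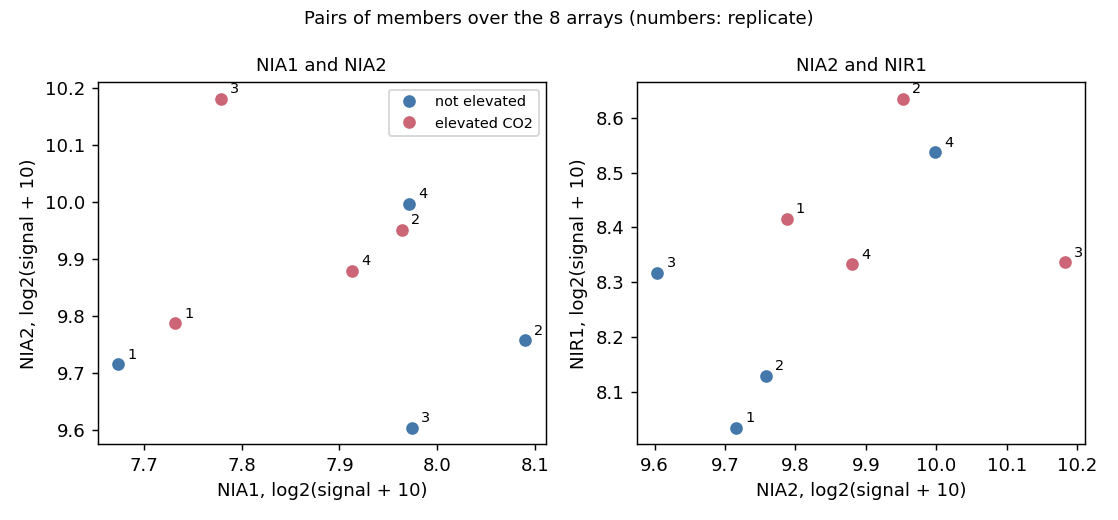
NIA2 against NIA1 (left) and NIR1 against NIA2 (right), each as log2(signal + 10), over the 8 arrays, with not-elevated arrays in blue, elevated CO2 arrays in red and the replicate number beside each point. NIA1 and NIA2 had r = -0.092 and rho = -0.12, and NIA2 and NIR1 had r = 0.47 and rho = 0.71. After adjustment over the 10 pairs of members the exact permutation p-values were 0.832 and 0.881, and 0.585 and 0.288, in the same order.

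Other genes around these steps were taken from lists of loci, of which few are named on the array by the tables used here. Leaving PPDK aside, 17 of 129 loci in 6 nitrogen lists were named and 15 tested. The 129 include the loci of NIA1, NIA2, NIR1 and GLN2, which the platform's gene table does not name and which are not among the 15. Of the 15, 7 had higher and 8 lower means in the elevated group, 0 passed the limma threshold and 0 an unadjusted p of 0.05. Over all probe sets tested 0.314% and 11.1% passed these, so neither 0 is read as a result about the 15. The median difference of the 15 was -0.013 on the log2(signal + 10) scale, against 0.0013 over all probe sets tested. The platform's gene table names none of the 21 loci listed for ammonium assimilation. That of GLN2 is among them and was read by its probe set identifier.

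Of the nitrate transporters, 3 of 19 loci were tested and all 3 had slightly lower means. NRT2.5, a high-affinity transporter known from nitrogen-starved plants, read 22.7, 22.5, 23.6 and 29.0 units in not-elevated replicates 1 to 4. It read 26.3, 16.0, 18.5 and 20.4 units in elevated replicates 1 to 4. These signals lay close to the minimum for testing, and the log2 difference of -0.19 had a limma adjusted p of 0.693. AT3G21670, which RefSeq also lists as NPF6.4 of the NRT1/PTR transporter family, read 546 ± 22.7 and 516 ± 18.2 units (SD, n = 4 each; log2 difference -0.080, adjusted p = 0.757). AT2G26690, its family member NPF6.2, read 160 ± 17.0 and 156 ± 25.6 units, a log2 difference of -0.043 that turned to 0.020 and 0.069 without not-elevated replicate 2 or elevated replicate 1.

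Genes that supply nitrate and nitrite reduction with cofactors or reductant were mixed, with 2 of the 4 tested higher and 2 lower. AT2G43760, listed for the synthesis of the molybdenum cofactor that nitrate reductase carries, read 119 ± 19.2 and 139 ± 15.3 units (SD, n = 4 each; log2 difference 0.22, limma adjusted p = 0.527). SIRB, which inserts iron to make the sirohaem of nitrite reductase, read 190 ± 11.5 and 202 ± 28.0 units (log2 difference 0.075). The phosphogluconate dehydrogenase genes AT1G64190 and AT5G41670, of the oxidative pentose phosphate pathway, read 433 ± 47.7 and 404 ± 29.3 units and 173 ± 16.1 and 158 ± 20.1 units (log2 differences -0.094 and -0.13). The median of the 4 was -0.0095.

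Isocitrate dehydrogenases make the 2-oxoglutarate into which ammonium nitrogen is finally carried, and the 3 tested genes of carbon skeletons were of this kind. cICDH, the cytosolic form, read 696.2, 823.0, 829.9 and 745.3 units in not-elevated replicates 1 to 4. It read 851.2, 782.6, 831.8 and 916.0 units in elevated replicates 1 to 4. Its groups overlapped, and its log2 difference was 0.13 with a limma adjusted p of 0.631. ICDH read 45.0 ± 6.14 and 49.5 ± 3.53 units (SD, n = 4 each) and AT5G14590 163 ± 10.1 and 164 ± 13.1 units, with log2 differences of 0.12 and 0.0095. The sign of AT5G14590 turned with 3 of the single arrays left out.

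In the nitrate signalling list the 3 tested genes differed by at most 0.034 in either direction. AT1G25550 and AT1G68670, of the HRS1 group of transcription factors that respond to nitrate, read 88.6 ± 7.77 and 87.6 ± 4.08 units and 174 ± 8.68 and 176 ± 6.72 units (SD, n = 4 each). AT3G60320, known as a regulator of nitrate signalling, read 395 ± 25.5 and 406 ± 50.3 units. Each of the 3 changed sign with at least 1 array left out. AT3G25790, of the HRS1 group too, had a mean of 5.43 and 4.24 units and was not tested.

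**Figure D4:**
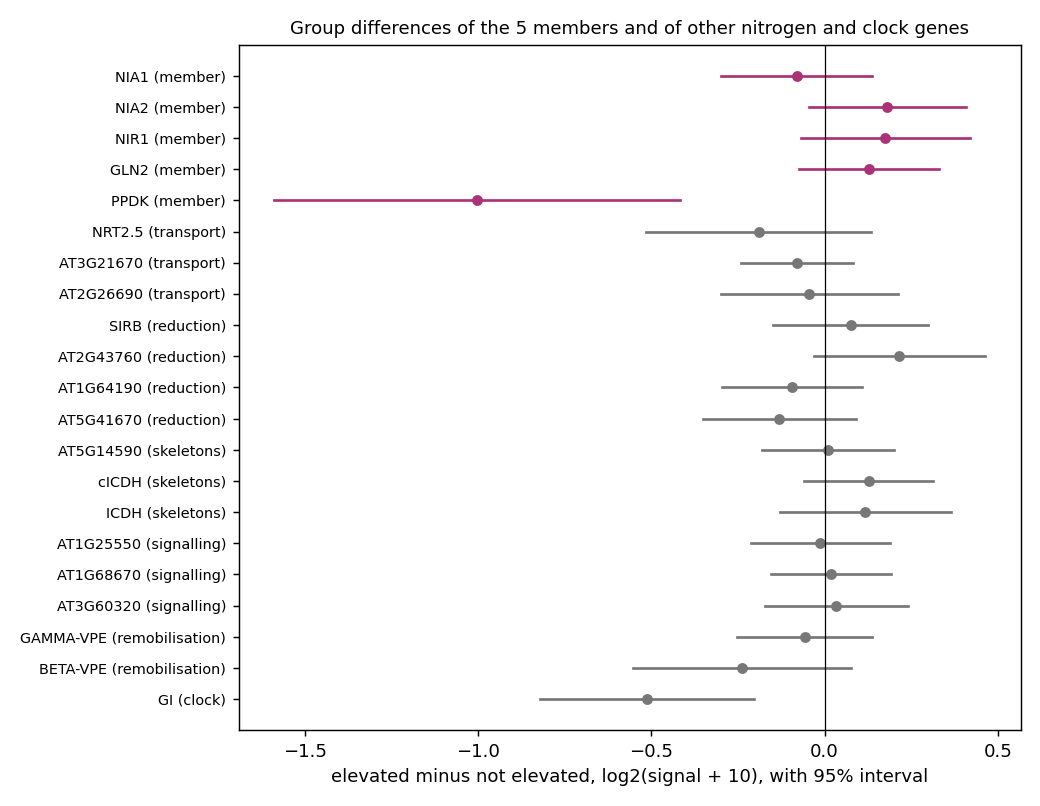
Difference of elevated minus not elevated on the log2(signal + 10) scale, with its 95% interval from the limma fit (n = 4 each), for the 5 members (purple) and for the other tested genes of the nitrogen lists and the clock (grey). The intervals of NIA1, NIA2, NIR1 and GLN2 include 0, and those of PPDK and GI lie below it before adjustment for the number of probe sets tested.

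Nitrogen remobilisation was represented, besides PPDK, by the vacuolar processing enzymes, cysteine proteases that mature other vacuolar proteins. GAMMA-VPE, the form of vegetative organs, read 144 ± 10.2 and 138 ± 10.8 units (SD, n = 4 each; log2 difference -0.057, limma adjusted p = 0.872). BETA-VPE, better known from seeds, read 46.9, 40.1, 42.8 and 54.1 units in not-elevated replicates 1 to 4. It read 41.2, 31.4, 29.3 and 49.7 units in elevated replicates 1 to 4. Its log2 difference was -0.24, with overlapping groups and an adjusted p of 0.589. WRKY53, a transcription factor of early leaf senescence, had means of 15.9 ± 3.64 and 12.1 ± 2.23 units, under the minimum for testing. It read 14.7 units in not-elevated replicate 1, inside the 12.5 to 21.0 units of its group, unlike PPDK.

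Nitrate reductase transcripts are known to cycle over the day, so the clock genes were read at the same harvest. GI, which the evening phase of the clock expresses, was the single clock gene of 14 listed that is named on the array. It read 47.9, 56.7, 43.6 and 54.3 units in not-elevated replicates 1 to 4. It read 25.3, 28.5, 44.3 and 33.5 units in elevated replicates 1 to 4. Elevated replicate 3 lay among the not-elevated arrays and the other 3 below them. The log2 difference was -0.51, with a limma adjusted p of 0.185 and an unadjusted p of 0.00315. Its part in the differences of NIA1, NIA2 and PPDK was not tested.

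Probe sets with patterns most like each member were ranked by Pearson's r of log2(signal + 10) over the 8 arrays among the tested probe sets that name 1 gene, 8518 for the assimilation genes and 8517 for PPDK. These values are a description, since the genes were picked for being the most alike. For NIA1 they were AT3G23300 (r = 0.93), AT3G48030 (0.91) and AT4G29070 (0.91), and for NIA2 AT5G42620 (0.95), AT4G36660 (0.94) and AT4G12490 (0.92). For NIR1 they were AT5G62960 (0.98), PRA1.E (0.95), of the prenylated RAB acceptor family, and AT3G48600 (0.92). For GLN2 they were AT2G25760 (0.97), AT1G12800 (0.95) and AT3G08930 (0.93). None of these 12 genes passed the limma threshold between the groups, with adjusted p-values of 0.334 to 0.970. Over all probe sets tested 0.314% passed it.

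AT5G62960, the most like NIR1, read 55.0, 57.4, 67.8 and 75.9 units in not-elevated replicates 1 to 4. It read 71.2, 76.9, 65.3 and 69.0 units in elevated replicates 1 to 4. Its order over the arrays was near that of NIR1, with not-elevated replicate 1 lowest and elevated replicate 2 highest in both.

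For PPDK the most alike were AT1G50380 (r = 0.97), AT5G39670 (0.96) and AT5G38830 (0.96), with limma adjusted p-values between the groups of 0.430, 0.367 and 0.562. AT1G50380 read 183.9, 228.2, 222.9 and 206.3 units in not-elevated replicates 1 to 4. It read 182.4, 188.3, 184.9 and 170.4 units in elevated replicates 1 to 4. As in PPDK, not-elevated replicate 1 lay within the range of the elevated arrays and the other 3 not-elevated arrays above it. An r above 0.9 was reached with PPDK by 31 probe sets, against 8 with NIA1, 6 with NIA2, 7 with NIR1 and 13 with GLN2. A negative r of more than 0.9 in size was reached with PPDK by 12 probe sets. The same count was 7 with NIA1, 7 with NIA2, 8 with NIR1 and 15 with GLN2, so PPDK did not have the most on that side. How many of either sign chance would give was not computed, so the counts are a description. These coefficients with PPDK span 3 arrays with high and 5 with low PPDK signals, and none was computed within either set.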

How the data were processed

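Each of 8 samples gave 1 array. What the authors deposited is an intensity per probe set, linear and not logged, from MAS5 (no version), as the submitters' processing notes name it. Further steps are not known from these sources. In the deposited values the mean, trimmed by 2% at each end, was 100 units on every array, which hides a change shared by all transcripts. The number of arrays limits the precision.

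From 22810 probe sets 64 controls were left out. The 15296 with a mean of at least 20 units were tested as log2(signal + 10) in limma 3.58.1 under R 4.3.3 (lmFit, then eBayes with trend), two-sided, with Benjamini-Hochberg adjustment at 0.05. The method was tested on simulated data with normal noise and changes larger than the differences of the 4 assimilation genes. That test does not say whether changes of their size would be found. Exact permutation tests and correlations used Python 3.11.15. Signals have SDs over arrays, and log2 differences have SEs from limma.

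Names came from the platform's gene table, with symbols brought up to date from RefSeq (assembly TAIR10.1). The platform's table names 1 gene for 13513 probe sets, several for 503 and none for 8730. Where a gene had several probe sets the brightest was used. No genome build is named, so coordinates are not used. Sequences are not used here.

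The members and lists were chosen with earlier results of these data known. Named genes are the members, every tested gene of the 6 nitrogen lists (at most 6 a list), up to 2 clock genes with the smallest p, and the 3 genes most like each member. RCA, LHCB4.3, AT3G25790, WRKY53 and the root markers fall outside this rule and were named after their values were seen. Alternatives were quantile normalization, scaling to a common median, a pseudocount of 1 or of 50, testing without a filter, a minimum of 50 units, no trend, array weights, the replicate block and arrays left out.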

Additional observations from a re-analysis of the deposited data

Results flagged for a closer look

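Dixon's ratio was used to pick out, within a group, an extreme array that stood apart from the remaining 3. Of 82 groups tested, 8 were picked out, where chance gives 4.1. Among the members it was GLN2 in not-elevated replicate 2, with 2043.1 units against 2366.7 to 2403.7 in the other 3 arrays. The same array read 230.4 units for AT3G08930, one of the genes most like GLN2, against 299.5 to 311.0. Not-elevated replicate 1 read 260.8 units for AT3G23300, most like NIA1, against 363.5 to 381.0, and 275.7 units for AT5G38830, among the 3 most like PPDK, against 312.5 to 316.7. Genes picked for likeness share such arrays with their member by construction.

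For the transporter gene NRT2.5, not-elevated replicate 4 was at 29.0 units, with its group otherwise at 22.5 to 23.6. The rest were root markers near the minimum for testing. AT3G54580 read 27.6 units in elevated replicate 1 against 6.2 to 7.8, GH9C1 20.6 units in the same array against 11.0 to 12.3, and EXPA7 24.7 units in not-elevated replicate 2 against 28.3 to 28.8. PPDK was not picked out in either group.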

How the results depend on the processing

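The differences of NIA1, NIA2, NIR1 and GLN2 kept their sign and missed the threshold under all 18 alternatives. PPDK kept its sign under 17, and was not tested with a minimum of 50 units. It passed without not-elevated replicate 1 (-1.33) and with both first replicates left out (-1.33), and ran from -1.33 to -0.81 with 1 array left out. With the replicate block PPDK was -1.002 (limma adjusted p = 0.129) and 50 probe sets passed. Deviations of same-numbered arrays correlated at -0.18 to -0.037, so the numbers were not taken as pairs.

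Of all probe sets tested, 48 passed, against 30 with quantile normalization, 28 with a pseudocount of 1, 1 with no filter, 9 with no trend, 132 with array weights and 144 with both first replicates left out. With 1 array left out, 0 to 131 passed, the 0 without not-elevated replicate 3, where 1395 had an unadjusted limma p under 0.05.

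Of the differences between members, NIA1 minus NIA2 kept its sign in all 13 alternatives, at -0.33 to -0.16 with 1 array left out. Those of NIA2 minus NIR1 and of NIR1 minus GLN2 were small enough to change sign. NIA2 minus NIR1 was -0.021 with quantile normalization and -0.10 to 0.073 with 1 array left out. NIR1 minus GLN2 was -0.048 to 0.14 with 1 array left out and -0.087 with both first replicates left out. With 1 array left out, r ran from -0.37 to 0.19 for NIA1 and NIA2, from -0.29 to 0.40 for NIA1 and GLN2 and from -0.22 to 0.67 for NIA1 and NIR1. NIA1 and GLN2 had r = 0.55 with quantile normalization and 0.055 with a common median, NIA1 and NIA2 0.043 with a common median, and NIA1 and NIR1 -0.23 with both first replicates left out.

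Of 31 other named genes 24 kept their sign and 0 passed in any alternative. Over all probe sets tested 0 to 0.941% passed in the alternatives, so 0 of 31 is no result about these genes. AT2G26690 and AT1G25550 were 0.041 and 0.0045 with array weights and 0.075 and 0.049 with both first replicates left out. With 1 array left out the 7 that turned ran from -0.10 to 0.069 (AT2G26690), -0.065 to 0.028 (AT1G25550), -0.038 to 0.043 (AT5G14590), -0.026 to 0.085 (AT3G60320), -0.0067 to 0.046 (AT1G68670), -0.14 to 0.033 (AT3G23300) and -0.40 to 0.069 (AT3G48030). The causes were not tested. Signals near or under 20 units limit what PPDK, NRT2.5, WRKY53, AT3G25790 and the root markers show.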
